A study of Mus musculus with 35 samples.

Results

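Srsf3 (ENSMUSG00000071172.6) encodes SRSF3, one of the SR proteins. It lies on the plus strand of mouse chromosome 17, at chr17:29169618-29180311 of build mm9, and was 1 of the 37310 annotated genes. Its members here were all cross-linked cDNAs, called tags, that the files listed on the plus strand inside these bounds, sorted by exon, intron and untranslated region (UTR). The data came from individual-nucleotide cross-linking and immunoprecipitation (iCLIP), in which ultraviolet light joins a protein to the RNA it touches and a cDNA that ends beside the joined base is counted. The cells were mouse P19 embryonal carcinoma cells. Each line expressed a green fluorescent protein (GFP) fusion of SRSF1, SRSF2, SRSF3, SRSF4, SRSF5, SRSF6, SRSF7 or NXF1, and the control was GFP with only a nuclear localization sequence (GFP-NLS). The lines with tagged SR proteins were clones that carried the tagged gene on a mouse bacterial artificial chromosome (BAC), beside the untagged gene of the cell. There were 4, 5, 3, 3, 4, 3, 6 and 3 libraries of the 8 fusion proteins in this order, 31 in all, from cells of the same parental line pulled down with the same antibody against GFP. The 4 control libraries had 1 pooled file. Since a line is 1 clone, a difference between proteins cannot be told apart from a difference between clones.

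The SRSF3 line carries extra copies of Srsf3 itself on its BAC, so the amount of Srsf3 RNA in these cells may exceed that in the others. A level of Srsf3 tags in SRSF3 libraries against other libraries therefore holds binding and RNA amount together, and the 2 cannot be told apart here. Shares of tags within the gene are given beside the levels, and whether extra copies, or more SRSF3 protein, move such a share was not tested.

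SR proteins have RNA recognition motifs and a tail rich in arginine and serine, and they guide exon inclusion. SRSF3 is the smallest of the canonical members and recognises pyrimidine-rich RNA. The genes of the family contain highly conserved exons with an early stop codon, named poison exons, and inclusion of one sends the transcript to nonsense-mediated decay, so that an SR protein can limit its own level. NXF1 is the receptor that takes mRNA through nuclear pores. The study asked how SR proteins take part in mRNA export and set SRSF3 beside SRSF7.

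The annotation lists 5 transcripts of Srsf3. The coding transcript Srsf3-001 has 6 exons and 164 codons before its stop. Between its exons 3 and 4, transcript Srsf3-002 has a further exon, at chr17:29176399-29176854, of 456 nt. This is the poison exon. Its stop codon starts 31 nt after the first base of the exon, leaves 422 nt of exon behind it and ends the reading frame after 124 codons. Transcript Srsf3-004 ends in a longer form of the same exon, which adds 232 nt at chr17:29176855-29177086. The poison exon is 4.26% of the gene, the coding sequence (CDS) 4.63%, the 5' UTR 1.08%, the 3' UTR 18.3% and the remaining introns 71.7%.

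The sequences that bound and define the poison exon are shown first, since the results turn on it. Each is mm9 sequence of the plus strand, with the intron dinucleotide or the stop codon in capitals.

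3' splice site of the poison exon (chr17:29176379-29176407): aaaaatgaaccccgttacAGagtcaccat
Stop codon of the poison exon (chr17:29176417-29176445): tctcaccaccctcTGAatctgcattagcc
5' splice site of the poison exon (chr17:29176841-29176869): gaaacccaaaactaGTaagtttttcctgc
3' splice site of exon 4 (chr17:29177700-29177728): tttactgtttctgcttctAGatccccaag

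The 5 positions with the most SRSF3 tags are shown in the same way, each as the 29 nt centred on the tagged base, which is base 15. Capitals mark every CNTC (N is any base), the DNA form of CNUC. CNUC is the core that the study derived for SRSF3 from these same libraries, so its presence at SRSF3 positions is not independent of them.

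Position 29176675, 276 nt into the poison exon: tttaccaaatgtCTTCacaacaactacag
Position 29176863, 9 nt past the poison exon: aaactagtaagtttttcctgcttatacag
Position 29176794, 395 nt into the poison exon: tttcagcaaattCTTCctggcCGTCagtc
Position 29176417, 18 nt into the poison exon: acCATCatgtctCTTCtcaccacCCTCtg
Position 29176803, 404 nt into the poison exon: attCTTCctggcCGTCagtccggcagcct

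In 4 of the 5, all inside the poison exon, the tagged base was the T of a CNTC. The other lay beyond the 5' splice site, in a run of T. The position 18 nt into the exon lies before its stop codon, and the other poison exon positions of this set lie after it.

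The total of listed tags ranged over the libraries from 13038 to 4459523 (median 237488). Of the 31, 23 listed Srsf3 tags, and the 8 that did not held between 13038 and 140361 tags. The study calls its replicates biological, and p-values measure the spread between these libraries. The track headers of the libraries labelled SRSF2 replicates 2 and 5 name SRSF1, and their values are given under their labels. The headers also hold a run date, in 2014 for SRSF1, SRSF3, SRSF4 and NXF1 and in 2013 for SRSF2, SRSF5 and SRSF6. SRSF7 replicates 1 to 3 have 2013 and replicates 4 to 6 have 2014. A difference between SRSF3 and SRSF2, SRSF5 or SRSF6 therefore cannot be told apart from a difference between run years. Embryonal carcinoma markers carried tags for 12 of 12 genes, with a summed level between 0 and 3699 tags per 1000000 listed tags (CPM) and above 0 in 30 of 31 libraries. Endoderm and liver markers had tags for 0 of 4 genes (Afp, Alb, Sox17 and Ttr at 0), muscle markers for 2 of 4 (Ckm and Myog at 0), fibroblast markers for 4 of 4 with a highest sum of 15.4 CPM, and neuron markers for 3 of the 3 that were annotated, with sums between 0 and 383 CPM.

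Srsf3 tags stood at a far higher level in SRSF3 libraries than in any other library. Their levels were 3797, 3169 and 3076 CPM (mean 3347 ± 392 SD, n = 3), from 1554, 6823 and 5996 tags. The lowest of these was 5.67 times the highest level in any other library, so the groups did not overlap.

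SRSF6 came next, with 289, 251 and 235 CPM (258 ± 27.8 SD, n = 3). SRSF2 libraries had 0, 543, 0, 206 and 461 CPM (242 ± 253 SD, n = 5), and the 2 highest are those whose headers name SRSF1. SRSF5 libraries had 8.01, 202, 52.8 and 490 CPM (188 ± 218 SD, n = 4). SRSF6 was thus the steadiest of the other proteins, and its 3 libraries were all among the deep ones, with at least 1155384 tags.

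SRSF4 libraries had 37.0, 353 and 37.6 CPM (142 ± 182 SD, n = 3). SRSF7 libraries ranged from 0 to 337 CPM with a median of 27.3 (100 ± 142 SD, n = 6). SRSF1 libraries had 175, 89.3, 0 and 0 CPM (66.1 ± 83.9 SD, n = 4). In this order each protein after SRSF3 overlapped its neighbours in range.

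NXF1 libraries had 75.8, 0 and 36.8 CPM (37.5 ± 37.9 SD, n = 3), from 18, 0 and 4 tags. The control file listed 0 Srsf3 tags among its 21880 tags, a total smaller than that of most libraries, so it sets no close limit on background. On the minus strand within the gene the libraries listed 0 tags.

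**Figure D1:**
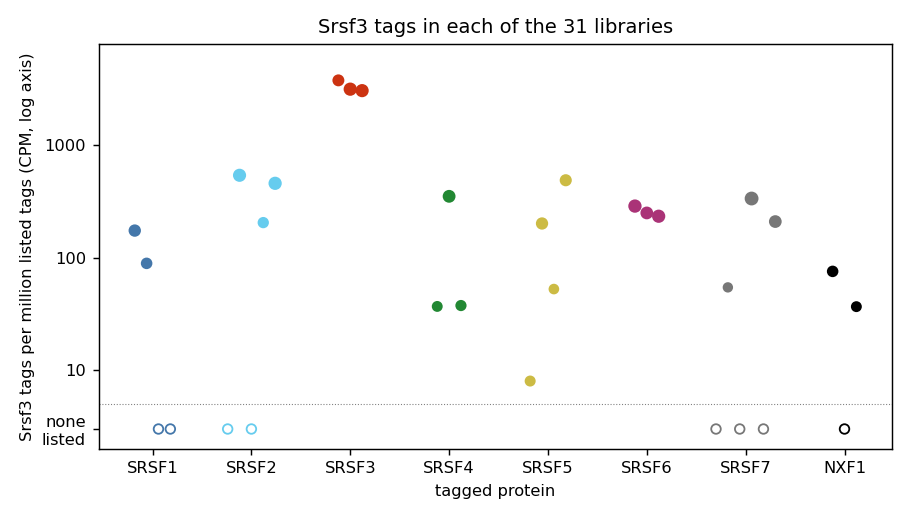
Level of Srsf3 tags (CPM, log axis) in each of the 31 libraries, by tagged protein; point size grows with the listed tags of the library and open circles are libraries with no Srsf3 tag. The 3 SRSF3 libraries lie between 3076 and 3797 CPM, and no other library exceeds 543 CPM.

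In limma voom across 6027 genes, Srsf3 was higher with SRSF3 than with the other 6 SR proteins by 5.21 ± 1.0 (SE) on the log2 scale (adjusted p = 0.00125, higher in 3 of 3 libraries). The call was lost with limma-trend (6.2, adjusted p = 0.0536). The median gene of this comparison was itself higher by 0.80, and 10.8% of all genes tested passed. Genes higher with SRSF3 were 8.54% of all genes, 515 against 138 lower ones, a split that was 440 to 421 when libraries were scaled by their tags in coding genes and 192 to 165 with trimmed mean scaling. Srsf3 itself was higher by 4.38 and 5.28 under those scalings (adjusted p = 0.00254 and 0.0306 in limma voom). Against SRSF7 alone the difference was 5.47 ± 1.23 (adjusted p = 0.0114), where 1.94% of all genes passed. Without any single SRSF3 library, the adjusted p of the SRSF7 comparison rose to between 0.0653 and 0.0783, and with only libraries of the later run year it was 0.0813. Several libraries stand at 0, so the size of these log2 differences depends on the value that voom adds to each count.

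Srsf3 with NXF1 was lower than with the 7 SR proteins, which did not pass (log2 difference −2.70 ± 1.04, adjusted p = 0.0864 in limma voom). The median gene was lower by 1.87 in the same comparison, and 5.14% of genes passed, 168 higher and 142 lower (459 to 54 with the coding gene scale and 238 to 1 with the trimmed mean). None of the other 6 SR proteins passed against the rest of them without SRSF3: 0 of 6 comparisons had an adjusted p under 0.05 (limma voom, 0.202 to 0.980) or an unadjusted p under 0.05. Of all genes, 1.48% passed for SRSF1, 0.431% for SRSF2, 0.265% for SRSF4, 18.2% for SRSF5, 6.24% for SRSF6 and 5.03% for SRSF7. With only libraries of at least 400000 tags, the libraries labelled SRSF2 passed (adjusted p = 0.0373 in limma voom), and these were then only the pair with SRSF1 in their headers.

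The other SR protein genes were not called higher with SRSF3. Of 13 genes of the family, 12 were tested, 1 (Srsf3) was higher and 0 were lower, where 8.54% and 2.29% of all genes were, and their median was 0.07 against 0.80 for all genes. With the coding gene scale 2 were lower (Srsf4 and Srsf5), where 6.99% of all genes were. With only libraries of at least 400000 tags 9 of 12 were lower, where 11.5% of all genes were. Transcripts of Srsf5 had the lowest log2 difference of the 12, with 61.2 CPM with SRSF3 and 524 CPM over the other 6 proteins (−2.69 ± 1.13, adjusted p = 0.113 in limma voom). The list is small, and each SR protein line carries extra copies of its own tagged gene, whose part in these values was not tested.

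Neighbouring genes were examined because a BAC holds more than 1 gene. Of 12 annotated genes within 100000 nt of Srsf3, Stk38, a kinase gene on the minus strand, had 232, 255 and 193 CPM in SRSF3 libraries against at most 181 CPM in any other (2.39 ± 0.92, adjusted p = 0.0836 in limma voom). The noncoding Gm16197 had 29.3, 26.5 and 27.7 CPM against at most 8.16 elsewhere. Kctd20, on the other side of Stk38, had 58.6, 52.5 and 38.0 CPM, within the range of other libraries. Tags within 100000 nt on either side of Srsf3 summed to 806, 726 and 540 CPM with SRSF3 and to at most 336 CPM in any other library. The part that extra copies have in the level of Srsf3 was not tested.

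Within Srsf3, tags of SRSF3 gathered on the poison exon and the intron around it. The densities below are means per 1000 nt over the 3 SRSF3 libraries, so that stretches of different length can be compared. The poison exon had 3219 ± 644 CPM per kb (SD, n = 3), from 3901, 3137 and 2620 in the single libraries. The 232 nt that follow it had 1953 ± 178, the rest of the intron up to exon 4 had 706 ± 122, and the intron upstream of the poison exon had 669 ± 41.9. In each of the 3 libraries the poison exon was the densest of these stretches.

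Exons 1 and 2 and intron 2 were nearly bare in the same libraries, and the other exons were less dense than the poison exon. Exon 1, which is 5' UTR, had 7.14 CPM per kb, from 1, 0 and 0 tags, and exon 2, where translation starts, listed 0 tags in all 3 libraries. Exon 3 had 204, exon 4 had 16.3, exon 5 had 313 and exon 6, most of which is 3' UTR, had 28.2 CPM per kb. Intron 1 had 67.5 and intron 2 had 2.97 CPM per kb. Exon 2 and intron 2 were low with every other protein too, with means of at most 16.4 (SRSF4) and 2.55 (SRSF2) CPM per kb. The plot of tags along the gene shows the concentration on and around the poison exon, with smaller groups of tags in intron 1 and just before exon 2.

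**Figure D2:**
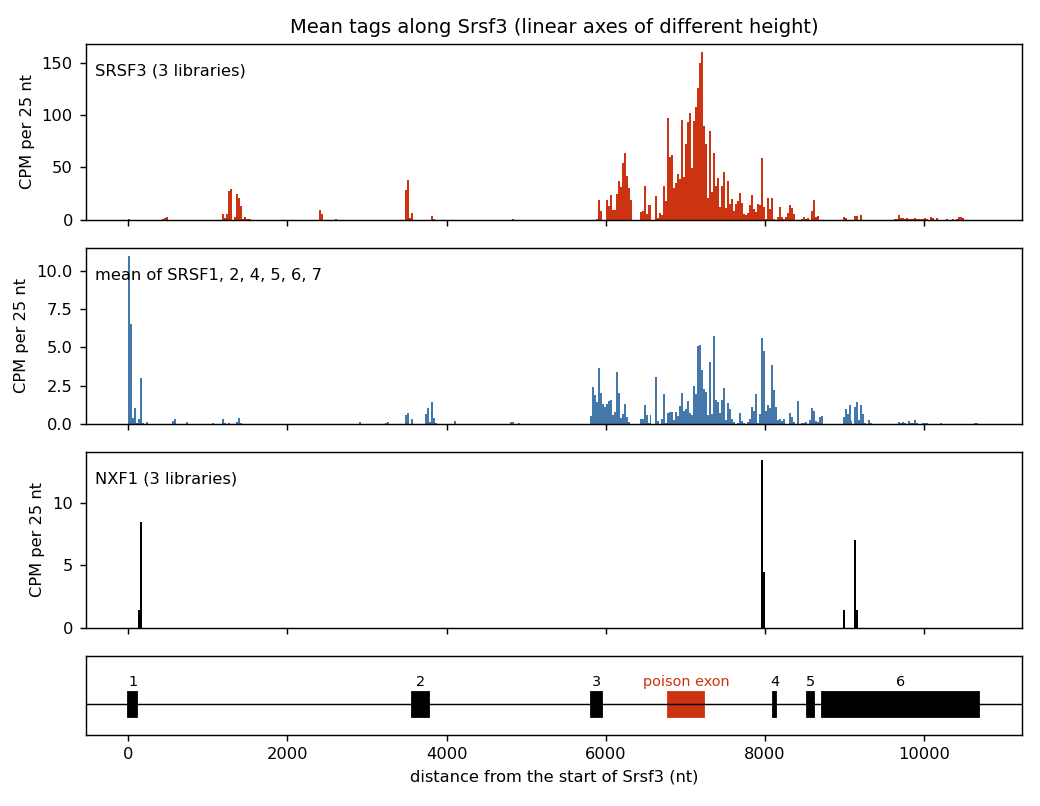
Mean level (CPM per 25 nt, linear axes of different height) against distance from the start of Srsf3 (nt) for SRSF3, for the mean of the other 6 SR proteins and for NXF1, above a map of the 6 coding exons (black) and the poison exon (red). SRSF3 peaks over the poison exon, the other SR proteins have their highest bins in exon 1 together with a spread from exon 3 to exon 4, and NXF1 appears at a few places only.

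The share of Srsf3 tags on the poison exon was compared in the 16 libraries with at least 20 Srsf3 tags. With SRSF3 it was 46.8% (95% Wilson interval 44.4 to 49.3), 45.1% (43.9 to 46.3) and 38.8% (37.6 to 40.1). Intervals cover counting error only. Replicate 3 lay below the intervals of the other 2.

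For SRSF6 the share was 24.3% (21.2 to 27.7), 24.8% (20.2 to 30.1) and 17.7% (14.6 to 21.3). For SRSF7 it was 21.7% (19.7 to 23.8) and 16.4% (12.2 to 21.7). The libraries labelled SRSF2 had 14.4% (12.4 to 16.7), 0 of 37 tags and 23.2% (20.6 to 25.9). All of these lay below the lowest SRSF3 library.

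The highest share outside SRSF3 was in SRSF5, with 30.7% (23.4 to 39.2) and 16.7% (12.5 to 21.8). SRSF1 libraries had 13.8% (8.81 to 21.0) and 18.2% (7.31 to 38.5), and the SRSF4 library had 8.5% (6.26 to 11.5). The poison exon thus held tags of every SR protein, and of SRSF3 in the largest share.

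The mean was 43.6% ± 4.21 (SD, n = 3) with SRSF3 and 17.7% ± 7.83 (SD, n = 13) with the others, a difference of 25.9 percentage points. The two-sided exact permutation test over libraries gave p = 0.00179, the smallest that its 560 regroupings allow, and 0.025 after Benjamini-Hochberg adjustment over 14 share tests (SRSF3 higher in 3 of 3 libraries). Without 1 SRSF3 library the difference was 24.3 to 28.3 points, and the adjusted p was 0.133 because fewer regroupings remain. When each listed position was counted once, whatever its number of tags, the difference was 10.0 points (adjusted p = 0.28 in the exact permutation test). Counted so, the share is bounded by the 456 nt of the exon, of which the SRSF3 libraries listed 260, 403 and 380. The call was also lost with a block for the replicate number (20.8 points, adjusted p = 0.389) and with libraries of the later run year (27.9 points, adjusted p = 0.196), both from exact permutations. Fewer regroupings remain in both, so neither setting can decide whether the call holds.

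Against SRSF7 the share was higher by 24.6 points, with p = 0.1 in the exact permutation test, the smallest that 3 against 2 libraries allow (adjusted p = 0.35). None of the other 6 SR proteins differed from the remaining SR libraries in its share on the poison exon (exact permutation tests, adjusted p = 0.355 to 0.986). No NXF1 library had 20 Srsf3 tags, so no share was tested for NXF1.

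**Figure D3:**
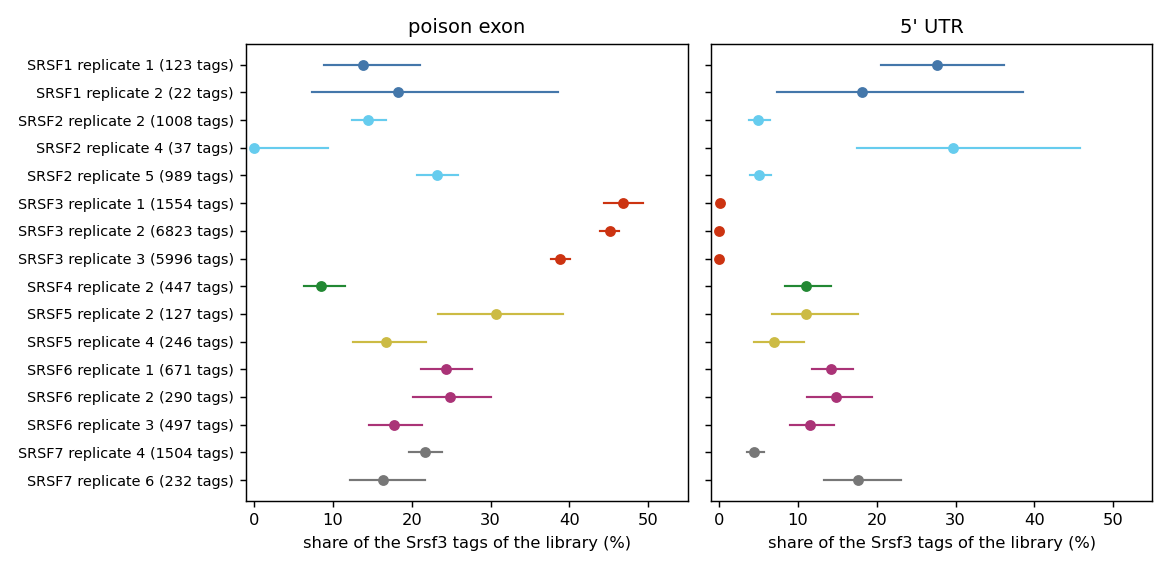
Share of the Srsf3 tags of a library (%) on the poison exon (left) and on the 5' UTR (right) in the 16 libraries with at least 20 Srsf3 tags; bars are 95% Wilson intervals for counting error. SRSF3 libraries have 38.8 to 46.8% on the poison exon and at most 0.0644% on the 5' UTR, while the others have 0 to 30.7% and 4.45 to 29.7%.

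The 5' UTR showed the opposite order. SRSF3 libraries listed 1 of 1554, 0 of 6823 and 0 of 5996 tags there, and the other 13 libraries had 13.6% ± 8.12 (SD), from 4.45% to 29.7%. The groups did not overlap, and no test had been planned for this share. In the merged region of exon 1, chr17:29169614-29169720, SRSF3 libraries had 2.44, 0 and 0 CPM. SRSF6 libraries had 44.8, 42.4 and 30.2 CPM there. Libraries labelled SRSF2 with Srsf3 tags had 26.9, 61.2 and 23.3 CPM. SRSF3 was thus below all of these in absolute level, although its total on the gene was higher. The difference was −5.85 ± 0.97 (log2, adjusted p = 3.44e-05, limma voom over 6649 regions). Testing required 42.1 CPM in at least 3 libraries. This region reached that level in 4 libraries of other proteins and in 0 with SRSF3, so its values are a description. Over 13 settings, this one included, the log2 difference stayed between −6.67 and −2.47 and passed in 12. The exception was limma-trend (adjusted p = 0.285).

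Files list only positions that passed a local density threshold, set library by library and separately by kind of segment. A stretch with few tags may then be absent from a list without being free of tags. The pooled SRSF3 file, which sums libraries before the threshold, lists 21 of 14908 Srsf3 tags in the 5' UTR, 0.141% (95% Wilson interval 0.0922 to 0.215). The part of the threshold in the low value was not tested.

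The other parts of the gene differed less. CDS held 1.93%, 1.57% and 1.4% of SRSF3's tags (1.63 ± 0.27, SD, n = 3) and 11.8% ± 4.95 (SD, n = 13) of those of the others (p = 0.00714 in the exact permutation test, adjusted p = 0.05, which is not under the threshold). In CPM the CDS was not lower with SRSF3: it had 55.4 ± 15.9 CPM (n = 3) against 32.2 ± 9.64 with SRSF6 (n = 3), the next highest mean. The 3' UTR held 1.78% ± 1.82 with SRSF3 and 5.27% ± 4.61 with the others (adjusted p = 0.525, exact permutation). Introns held 53.0% ± 2.65 and 51.6% ± 10.9 (adjusted p = 0.969, exact permutation).

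Copies of Srsf3 elsewhere limit the exon values. Of the 31-nt words of the gene, 75.4% in the CDS, 38.5% in the 3' UTR, 36.2% in the 5' UTR and 9.46% in introns occur more than once in the genome, and 0% in the poison exon. There were 7 similar loci elsewhere, and 3 of them had tags, 407 in all against 20606 on Srsf3. The pseudogenes Gm9761 and Gm12355 held 224 and 181 of these. None of the sources used here says how reads that match several loci were treated, so CDS and UTR values are uncertain, and the poison exon is the part of the gene this touches least.

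Regions, the deposited clusters of all proteins merged within 30 nt, place the difference along the gene. Srsf3 held 37 regions, 33 with tags in a library, and 7 passed the filter on low values, at least 42.1 CPM in 3 libraries. Of these, 4 reached that level in the SRSF3 libraries alone, so that the filter could admit them only as higher with SRSF3, and their values are a description. Exon 1 reached it in 4 libraries of other proteins and in 0 with SRSF3. It thus passed the filter only through proteins where it was higher, and its values are a description too. The region around the poison exon reached that level in 13 other libraries, and the region from exon 3 into its intron in 10. Of all regions, 38.4% passed with SRSF3 against the other 6 SR proteins (18.5% higher and 19.9% lower, or 1227 and 1326 regions), a split that was 974 to 2017 with the coding gene scale and 1367 to 807 with the trimmed mean. The largest region, chr17:29176240-29177985, spans the poison exon, its flanks and exon 4, and had 2949, 2435 and 2181 CPM with SRSF3 against a mean of 90.1 CPM over the other 6 (5.36 ± 0.93, log2, adjusted p = 5.46e-05 in limma voom).

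A region that starts in exon 3 and runs into the following intron, chr17:29175440-29175933, had 440, 375 and 398 CPM with SRSF3 against a mean of 28.2 (3.89 ± 0.83, adjusted p = 0.000478 in limma voom). It holds 130 nt of CDS and 364 nt of intron. Exon 3 itself had a mean of 27.5 CPM with SRSF3 and 22.6 CPM with SRSF6, the next highest mean. A region of intron 1, chr17:29170801-29170916, had 80.6, 58.5 and 70.3 CPM with SRSF3. Only SRSF2 replicate 2 and SRSF4 replicate 2 listed tags there among the other libraries, with 3.77 and 5.53 CPM. The region just before exon 2, chr17:29173101-29173181, had a mean of 74.3 ± 41.6 CPM (SD, n = 3) with SRSF3 and 1.6 CPM over the others, although exon 2 itself had no SRSF3 tag. Exon 2 was low with the other proteins as well, with a mean of at most 3.42 CPM (SRSF4).

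Against SRSF7 alone, 23.2% of all regions passed in limma voom. On its log2 scale the region around the poison exon was higher by 5.65 (adjusted p = 0.00101). The region from exon 3 into its intron was higher by 3.59 (adjusted p = 0.0139). Exon 1, which reached the filter level in no library of either protein, was lower (−5.73, adjusted p = 0.000434). These 3 also passed with the replicate block and without any single SRSF3 or SRSF7 library, while exon 1 did not pass with limma-trend (adjusted p = 0.704). With NXF1 against the 7 SR proteins, 0 of the 7 tested regions passed in limma voom, where 11.7% of all regions passed. In the same fit 2 had an unadjusted p under 0.05, both lower with NXF1. It was 0.00903 for the region around the poison exon and 0.042 for the region from exon 3 into its intron.

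At single nucleotides the 3 SRSF3 libraries had similar profiles in the poison exon. They listed 260, 403 and 380 of its 456 nt, 225 nt in all 3 and 438 nt in at least 1. Pearson correlations between pairs of libraries over the 456 nt were 0.770 to 0.883, a description, since neighbouring bases share fragments. No single position dominated: the strongest held 2.60% to 3.71% of the poison exon tags of its library.

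The last 152 nt of the exon, of 3 equal stretches, held 49.0%, 44.2% and 43.8% of SRSF3's poison exon tags and the first 152 nt 21.6%, 23.2% and 24.2%. SRSF6 leaned further to the end, with 58.9%, 80.6% and 67.0% in the last 152 nt. The SRSF4 library had 84.2% there, from 38 tags. In SRSF7 the first stretch held 31% and 47.4% and the last 48.8% and 28.9%, from 326 and 38 tags. All of the SRSF6 libraries thus lay above all of the SRSF3 libraries in the share of the last 152 nt, which was not tested.

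**Figure D4:**
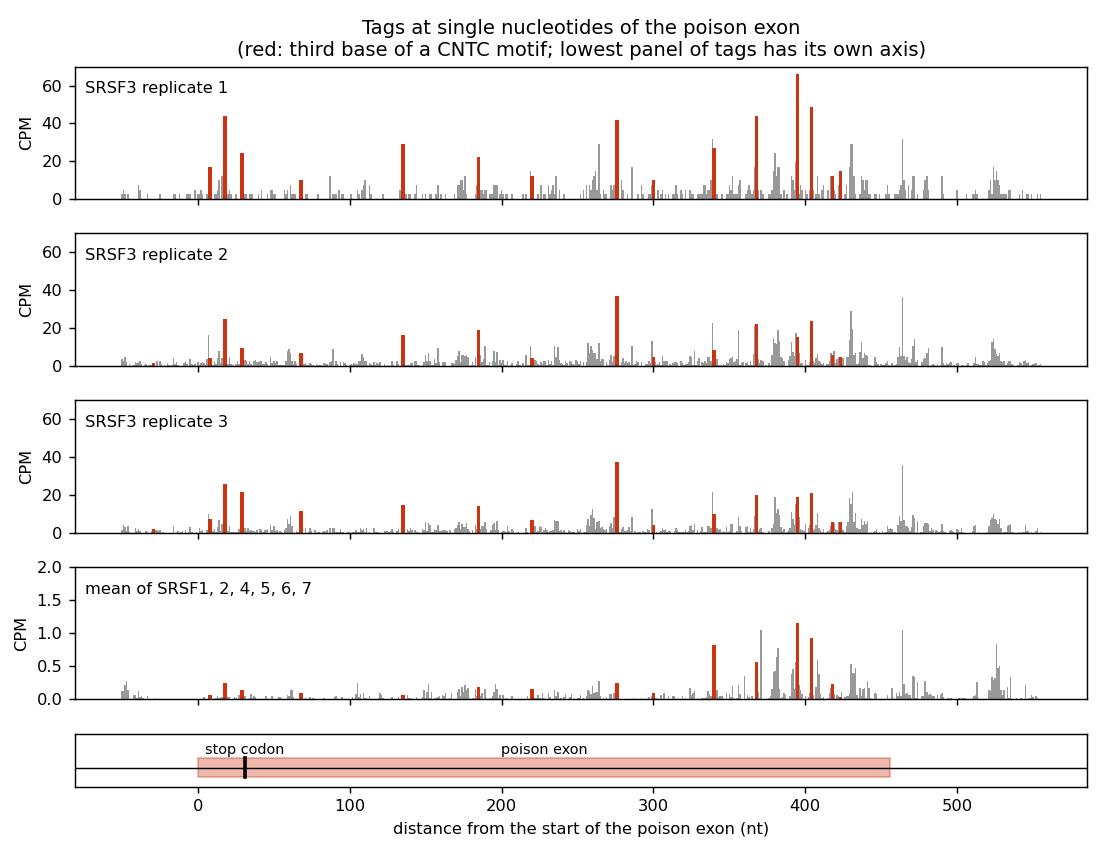
Level (CPM) at each nucleotide against distance from the start of the poison exon (nt) in the 3 SRSF3 libraries, on the same axis, and for the mean of the other 6 SR proteins, on an axis of its own; red bars are the third base of a CNTC and the lowest panel maps the exon and its stop codon. The tallest bars of each SRSF3 library stand at the same few positions, such as 276 nt with 41.5, 37.2 and 37.5 CPM.

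The strongest position lay 276 nt into the exon and had 41.5, 37.2 and 37.5 CPM with SRSF3 (38.7 on average), and 188 tags over all libraries. SRSF6 had a mean of 0.57 CPM and SRSF7 of 0.26 CPM there. The position 395 nt into the exon had 66, 15.3 and 19 CPM with SRSF3, so that 1 library carried much of its mean of 33.4 CPM. SRSF6 had 3.01, 2.60 and 3.78 CPM at this base, which was listed in 14 libraries.

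The position 9 nt past the exon, beyond its 5' splice site, had 31.8, 36.2 and 35.9 CPM with SRSF3. It was listed in 12 libraries, and SRSF1, at a mean of 2.74 CPM, was next. The position 18 nt into the exon had 44.0, 24.6 and 25.7 CPM with SRSF3 and that 404 nt into it had 48.9, 23.7 and 21.0 CPM. These 5 bases were chosen by their SRSF3 level, and at each of them the SRSF3 libraries all exceeded every other library.

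CNTC was searched on the gene's strand only, overlaps included. It occurs 126 times in the gene, and 15 times in the poison exon, and its T is 1.18% of all positions of the gene and 3.29% of those of the poison exon. All 15 sites of the poison exon had tags at their T in all 3 SRSF3 libraries, as had 225 of the 456 nt of the exon. No separate count was made for its other T bases, and CNUC was derived from these same libraries. A window of 29 nt holds at least 1 CNTC at 24.3% of the positions of the gene and at 66.2% of those of the poison exon.

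Of all Srsf3 tags, 15.8% (95% Wilson interval 14.1 to 17.7), 9.31% (8.64 to 10.0) and 10.5% (9.72 to 11.3) fell on the T of a CNTC with SRSF3. With the other SR proteins it was 6.41% ± 3.78 (SD, n = 13), from 0% to 13.6%. The ranges overlapped. Within the poison exon alone the shares were alike, 18.9% ± 4.71 (n = 3) and 16.7% ± 4.26 (n = 10). Among the 10 strongest SRSF3 positions, 9 lay in the poison exon and 6 on such a T, and among the 50 strongest, 33 and 14. Cross-linking by ultraviolet light favours uridine, and 62.0% ± 3.77 of SRSF3's and 59% ± 6.05 of the other proteins' Srsf3 tags fell on a T, which is 32.8% of the gene.

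The positions where the other 6 SR proteins were strongest lay elsewhere. By mean CPM the leading 2 were in the intron before exon 4 and 2 more in exon 1. They are shown as above, with CNTC in capitals.

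Position 29177587, 133 nt before exon 4: tttcttttctttttttatttttggacgat
Position 29177714, 6 nt before exon 4: tttactgtttctgCTTCtagatccccaag
Position 29169649, 31 nt past the gene start: cgagaccgagaatctgtaggagcagaacc
Position 29169624, 6 nt past the gene start: ggtggtccgccatttcgtgacgccgcgag

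The first lies in a run of T and had 5.17, 8.66 and 4.25 CPM with SRSF6, but 24.4, 9.29 and 7.70 CPM with SRSF3, which is higher still. The second lies in the 3' splice site of exon 4, shown at the start, and had a mean of 6.95 CPM with SRSF4, from 18.5, 2.37 and 0 CPM, so that a single shallow library with 2 tags sets it. The 2 bases of exon 1 were listed in 11 and 10 libraries and in 0 of the 3 SRSF3 libraries. SRSF6 had a mean of 3.11 CPM at the first of them and SRSF5 of 3.59 CPM at the second. Rank 3 of the 5 positions by this rule, above both bases of exon 1, was 29178025 in intron 4. This position had 3 tags in 1 SRSF7 library, and its 31-nt word occurs 231 times in the genome. It therefore cannot be assigned to Srsf3 with any confidence and is not shown.

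SRSF6 serves as the comparison with the steadiest level, although its run year (2013) differs from that of SRSF3 (2014) in all libraries. It had 307 ± 63.6 CPM per kb on exon 1 (SD, n = 3), 167 ± 50.4 on exon 3, 159 on exon 4, 127 ± 32.4 on the poison exon and 71.1 on the rest of the intron before exon 4. Exon 1 was thus its densest stretch, where SRSF3 was nearly bare, and the poison exon was at less than the density of exon 3.

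NXF1 tags on Srsf3 were few. The libraries listed 22 tags, 18 in replicate 1 and 4 in replicate 3, of which 0 lay in the poison exon. Both libraries with tags listed the bases 133 and 127 nt before exon 4, the first of which is also the strongest position of the other 6 SR proteins. All 4 tags of replicate 3 lay between 142 and 127 nt before exon 4. Replicate 1 also listed 7 tags between 149 and 160 nt past the gene start, in intron 1, and 7 in the 3' UTR. These places are shown as before.

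Position 29177593, 127 nt before exon 4: ttctttttttatttttggacgatgagtgc
Position 29169772, 154 nt past the gene start: gaggtggagggagggaggtggagttccgc

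The authors' pooled NXF1 file, thresholded after summing, lists 58 Srsf3 tags. Of these, 33 lay in the 3' UTR (56.9%, 95% Wilson interval 44.1 to 68.8), 19 in introns (32.8%, 22.1 to 45.6), 5 in the poison exon (8.62%, 3.74 to 18.6), 1 in the 5' UTR and 0 in the CDS. In the pooled files of the SR proteins 1.70% to 15.4% of Srsf3 tags lay in the 3' UTR. The pooled files have no replicates, so this was not tested, and 38.5% of the 3' UTR words are repeated elsewhere.

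NXF1 tags formed 11 deposited clusters on Srsf3, 6 of them in the 3' UTR. Of the 11, SRSF4 clusters overlapped or touched 10, SRSF6 clusters 8, SRSF2 and SRSF3 clusters 7 each, SRSF5 clusters 6, and SRSF1 and SRSF7 clusters 5 each. The deposited clusters of SRSF2, SRSF3 and SRSF6 come from 1 library each and those of the others from pooled libraries, so these counts are not on one footing and give no order of the proteins.

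Across the 28 libraries without SRSF3, the genes whose log2(CPM + 1) varied most like that of Srsf3 were 2610318N02Rik (Spearman rho 0.936), Slc25a37 (0.932), Sbf1 (0.927), Exosc10 (0.926) and Ddx3x (0.922). This is a description over libraries that share their depth with all genes in them.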

How the data were processed

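The authors kept, per the file headers, cross-linked positions under a false discovery rate of 0.05 (100 permutations, neighbourhood of 15 nt, mm9 with Ensembl 59 segments), library by library and again in the sum over a protein's libraries. The deposited value is a count of cDNAs at a nucleotide (signed by strand) or over a cluster. The submitters' notes name CASAVA 1.4, but no source used here names the aligner. At 0, no position passed. Of the cluster files, those of SRSF2, SRSF3 and SRSF6 hold 1 library each, and SRSF7 replicate 4 is not in the pooled SRSF7 file.

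From these files, absolute values on the plus strand within Srsf3 (GENCODE vM1) were summed by exon, intron and UTR. CPM is tags per 1000000 listed tags. Genes and merged regions were tested with limma 3.58.1 voom in R 4.3.3 over all 31 libraries where at least 3 libraries reached 42.1 CPM (10 tags in the median library) and all libraries together 15 tags; adjusted p-values are Benjamini-Hochberg values over all features, called under 0.05. The fit was also run on simulated counts, which had no position threshold, so its behaviour on thresholded lists was not tested. Shares were compared by exact permutation over libraries (scipy 1.17.1). Positions were named by rule: the 5 highest by mean CPM with SRSF3, the 5 highest over the other 6 SR proteins and the 3 highest with NXF1. Repeated words were counted over the genome, and similar loci were found with BLAST+ (at least 90% identity over 200 nt). The gene, its parts, the lists and the tests were chosen with earlier results of these data known. Alternatives covered scaling, filters, limma-trend, a block for the replicate number, depth, run year, positions counted once, unique words, pooled files and leaving out libraries. The choice of deep libraries and of unique words was made after seeing the data.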

Additional observations from a re-analysis of the deposited data

Results flagged for a closer look

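The gene, its 5 parts and its flanks were looked at in the 4 proteins with more than 3 libraries, 28 sets in all, for a library that stands far from the rest of its group by Dixon's ratio. There were 4 such values. The usual rate of about 1 in 20 sets by chance does not hold for 3 of them, where all other libraries of the set are at 0. SRSF1 replicate 1 had 24.2 CPM in the CDS and 19.9 CPM in the 3' UTR of Srsf3, and the other 3 SRSF1 libraries had 0 in both. SRSF5 replicate 4 had 3.99 CPM in the 3' UTR, from 2 tags, and the other 3 had 0. SRSF7 replicate 4, the deepest library with 4459523 tags, had 24.7 CPM in the 3' UTR, and the nearest of the other 5 had 5.44 CPM. The first lies in the CDS, where 75.4% of the 31-nt words are repeated elsewhere, and the others in the 3' UTR, where 38.5% are.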

How the results depend on the processing

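The higher level of Srsf3 with SRSF3 kept its direction under 13 alternatives, from 3.48 to 6.2 on the log2 scale, and lost its call under 1 of them, limma-trend (6.2, adjusted p = 0.0536). Leaving out an SRSF3 library gave 5.14 to 5.28. Against SRSF7 the call was lost under 4 of 19 alternatives. They were the later run year (4.27, adjusted p = 0.0813) and each SRSF3 library left out (adjusted p up to 0.0783, limma voom). Leaving out a library of either protein gave 4.89 to 5.95. The lower level with NXF1 passed with libraries of at least 50000 tags (−3.22, adjusted p = 0.0189) and with the later run year (−3.18, adjusted p = 0.0329), and leaving out a library gave −3.84 to −1.45. Among the other 6 proteins, 1 passed with libraries of at least 400000 tags, and 0 when a library was left out.

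Regions called with SRSF3 were 7 of the 7 tested, and 11 of 21 tested with no filter beyond 15 tags in all. Of the 7, the filter admitted 4 through SRSF3 libraries alone and exon 1 through other libraries alone. When any single SRSF3 library was left out, the regions called were 3 of 3 tested, since fewer regions then pass the filter. With NXF1 they were 1 with a replicate block, 1 with at least 50000 tags and 2 with the later run year. They were 0 when any single NXF1 library was left out. Against SRSF7 they were 3 with the replicate block and 3 to 7 when a library was left out.

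The larger poison exon share of SRSF3 lost its call when positions were counted once (10.0 points, adjusted p = 0.28). The call was also lost with the replicate block (20.8 points, adjusted p = 0.389) and with the later run year (27.9 points, adjusted p = 0.196), each from exact permutations. Leaving out a library gave 24.3 to 28.3 points. Fewer regroupings remain with the block, with the later run year and without a library, so these settings cannot decide whether the call holds. It held with positions whose word is unique and with libraries of at least 400000 tags. The CDS share passed with at least 50 Srsf3 tags and with at least 400000 tags (−11.1 points and adjusted p = 0.0192 in both). Directions turned, without a call, for SRSF5 (−0.94 points with at least 50 Srsf3 tags or 400000 tags), SRSF6 (2.69 counted once, 0.64 with unique words), SRSF7 (5.08 with the replicate block) and the intron share of SRSF3 (−3.65, and −2.70 against SRSF7, with unique words; −0.094 to 2.43, and −1.17 to 5.97 against SRSF7, when a library was left out). In the authors' pooled files the poison exon differences were −13 points for SRSF4, 1.30 for SRSF7 and 19.4 for SRSF3 against SRSF7, the CDS difference −10.6 (−14.6 against SRSF7), and against SRSF7 the 3' UTR difference −0.14 and the intron difference 8.60. Causes were not tested. Replicate numbers did not pair the libraries: deviations of same-numbered libraries correlated at 0.0087 on average over 91 pairs, 15 of them above 0.1.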
